A study of Mus musculus with 6 samples.

Results

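The 34 genes described here carry out glucose and lactate transport, glycolysis, the control of pyruvate oxidation and the pentose phosphate pathway. They were chosen by symbol from a list of named genes, and all 34 were found among the 44788 genes and other transcripts of the count table. All 34 passed the filter on low counts, as did 15362 transcripts in all. Pgk1, G6pdx, Pdha1 and Pdk3 lie on the X chromosome of build GRCm38.

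RNA was sequenced from chondrocytes, the cells that build cartilage, taken from the epiphysis, the cartilage at the end of the femur, in C57BL/6 mice. The characteristics give the age as postnatal day 1, whereas the growth protocol speaks of P2 without saying what it means. The study asked what activation of the epidermal growth factor receptor (EGFR) does to these cells. Each of 3 groups had 2 libraries, and all cells grew with 10% serum. In the TGF-alpha plus gefitinib group, cells received gefitinib, an inhibitor of the EGFR kinase, at 10 µM for 30 min and then 10 µM gefitinib with 10 ng/ml transforming growth factor alpha (TGF-alpha), an EGFR ligand, for 48 h. The TGF-alpha group received 10 ng/ml TGF-alpha for 48 h. The control group received vehicle for 48 h, which the treatment protocol gives as 0.1% DMSO, present in all groups, and the design text as PBS. No group with gefitinib alone was analysed here, so every value with gefitinib is also a value with TGF-alpha. Nothing says that the libraries of a group came from separate cultures or animals, so p-values measure only the spread between these libraries, which may be technical.

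Glycolysis splits glucose to pyruvate in the cytosol and yields ATP without oxygen. Lactate dehydrogenase turns pyruvate into lactate and restores the NAD+ that glycolysis uses, while pyruvate dehydrogenase sends pyruvate into the mitochondrion's citric acid cycle. The pentose phosphate pathway branches off at glucose 6-phosphate and makes NADPH and ribose 5-phosphate. Growth plate cartilage has no blood vessels, and its chondrocytes are known for relying on glycolysis and on hypoxia-inducible factors, which bind a short ACGTG or GCGTG core near many glycolytic genes.

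Total counts ranged from 12317407 to 16096263 per library. The 34 genes together took 0.888% and 0.917% of all counts with TGF-alpha plus gefitinib, 1.191% and 1.203% with TGF-alpha, and 0.818% and 0.809% in controls. Levels are given as CPM, counts scaled to a common library size. None of the 10 chondrocyte markers was at 0, and type II collagen (Col2a1), the main cartilage collagen, had 43588 and 40569.8 CPM with TGF-alpha plus gefitinib, 28129.6 and 27134 CPM with TGF-alpha and 50966 and 47236 CPM in controls. The summed level of those 10 markers was 65504 to 68021 CPM with TGF-alpha plus gefitinib, 38117 to 39312 CPM with TGF-alpha and 75229 to 80104 CPM in controls. All 10 were called lower with TGF-alpha than in controls, as were 14% of all tested genes. All 10 were called higher with TGF-alpha plus gefitinib than with TGF-alpha, as were 17% of tested genes. With both agents, 6 of the 10 were still lower than in controls and 1 was higher, against 4.26% and 5.27%. In bulk RNA, fewer cells of a type and less RNA per cell cannot be told apart.

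Markers of other cell types were low except those shared with perichondrial fibroblasts. The 6 fibroblast markers summed to 16537 to 16928 CPM with TGF-alpha plus gefitinib, 14476 to 14586 CPM with TGF-alpha and 22071 to 23958 CPM in controls. The 6 osteoblast markers summed to 97.2 to 101 CPM, 55.9 to 60.3 CPM and 153 to 155 CPM in the same order of groups. The 7 macrophage and osteoclast markers summed to 103 to 106 CPM, 73.0 to 82.0 CPM and 67.5 to 69.2 CPM, and Ptprc, Tyrobp and Adgre1 were at 0 in every library, as was the endothelial Cdh5. Markers of endothelium, skeletal muscle, adipocytes and red cells summed to at most 11.9 CPM each in any library. Single markers did not all move with these sums. With TGF-alpha over control, 1 of 6 fibroblast markers was higher and 3 were lower. Of 4 tested osteoblast markers 0 were higher and 3 lower, and of 3 tested macrophage and osteoclast markers 1 was higher and 0 lower. Of all tested genes, 15.9% were higher and 14% lower. The part of these shifts in the results below was not tested.

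The promoters of 7 genes are shown as examples from each step: a glucose importer and a lactate exporter gene, 3 glycolytic genes that rose with TGF-alpha (Gpi1, Pfkp and Aldoc), lactate dehydrogenase A and the one pentose phosphate gene that fell with TGF-alpha. They were picked with their values known and are not the 7 largest changes. Each window runs from 250 bases before to 50 after a RefSeq start site on build GRCm38.p6, 5′ to 3′ along the gene. Capitals mark the hypoxia response cores ACGTG and GCGTG on either strand, so CACGT and CACGC mark the other strand, and in Ldha they cover the overlapping E-box CACGTG. The windows are Slc2a1 (chr4:119108495-119108794, plus strand), Slc16a3 (chr11:120948817-120949116, plus strand), Gpi1 (chr7:34230287-34230586, minus strand), Pfkp (chr13:6648722-6649021, minus strand), Aldoc (chr11:78322823-78323122, plus strand), Ldha (chr7:46845554-46845853, plus strand) and Taldo1 (chr7:141391910-141392209, plus strand).
Slc2a1: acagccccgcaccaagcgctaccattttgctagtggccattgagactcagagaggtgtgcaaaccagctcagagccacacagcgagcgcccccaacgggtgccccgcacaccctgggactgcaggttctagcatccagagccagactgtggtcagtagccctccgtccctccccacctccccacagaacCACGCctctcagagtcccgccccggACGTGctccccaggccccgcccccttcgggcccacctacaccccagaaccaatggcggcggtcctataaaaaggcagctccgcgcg
Slc16a3: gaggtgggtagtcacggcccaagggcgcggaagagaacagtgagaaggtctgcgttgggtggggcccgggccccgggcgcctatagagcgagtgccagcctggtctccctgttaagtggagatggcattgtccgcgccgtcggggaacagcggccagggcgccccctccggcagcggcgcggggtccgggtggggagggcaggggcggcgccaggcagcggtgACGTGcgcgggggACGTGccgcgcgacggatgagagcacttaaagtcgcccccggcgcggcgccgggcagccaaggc
Gpi1: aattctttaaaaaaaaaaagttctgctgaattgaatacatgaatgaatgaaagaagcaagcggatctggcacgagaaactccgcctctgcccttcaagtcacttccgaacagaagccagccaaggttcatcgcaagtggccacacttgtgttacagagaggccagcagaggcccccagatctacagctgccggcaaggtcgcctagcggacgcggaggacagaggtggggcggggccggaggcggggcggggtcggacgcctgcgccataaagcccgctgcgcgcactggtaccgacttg
Pfkp: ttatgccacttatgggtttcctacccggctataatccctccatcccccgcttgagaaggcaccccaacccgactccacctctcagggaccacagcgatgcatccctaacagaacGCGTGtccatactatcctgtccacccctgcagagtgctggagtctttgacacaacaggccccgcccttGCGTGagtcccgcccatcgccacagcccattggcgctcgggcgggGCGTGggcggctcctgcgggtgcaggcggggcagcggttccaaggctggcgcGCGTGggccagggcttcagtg
Aldoc: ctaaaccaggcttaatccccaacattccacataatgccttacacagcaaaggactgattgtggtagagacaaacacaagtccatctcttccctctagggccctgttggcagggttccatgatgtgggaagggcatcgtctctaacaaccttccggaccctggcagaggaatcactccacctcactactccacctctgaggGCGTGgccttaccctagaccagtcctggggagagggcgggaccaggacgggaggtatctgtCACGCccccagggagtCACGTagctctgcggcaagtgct
Ldha: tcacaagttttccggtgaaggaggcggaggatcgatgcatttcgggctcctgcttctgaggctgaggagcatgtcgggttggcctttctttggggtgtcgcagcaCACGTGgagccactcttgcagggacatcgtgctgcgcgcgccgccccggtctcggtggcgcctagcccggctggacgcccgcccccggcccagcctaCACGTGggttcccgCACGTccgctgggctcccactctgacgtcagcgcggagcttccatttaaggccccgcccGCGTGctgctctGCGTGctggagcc
Taldo1: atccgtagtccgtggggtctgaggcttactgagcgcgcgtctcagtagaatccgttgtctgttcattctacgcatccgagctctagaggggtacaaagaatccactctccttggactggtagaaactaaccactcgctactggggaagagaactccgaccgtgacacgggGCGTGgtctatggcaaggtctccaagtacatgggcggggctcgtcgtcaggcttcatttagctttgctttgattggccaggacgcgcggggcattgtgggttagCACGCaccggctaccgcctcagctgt

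Ldha carried 5 ACGTG matches, 2 GCGTG matches and 2 E-boxes CACGTG in the window shown, whereas Gpi1 carried none of these. Pfkp carried 4 GCGTG matches and Slc16a3 carried 2 ACGTG matches. Taldo1 also carried 2 GCGTG matches, although its counts moved against those of most other genes here. A promoter window was at hand for 33 of the 34 genes, 12 of which had more than 1 window, and Slc2a3 had none.

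Counted over all windows of a gene, 18 of 33 genes (54.5%) held ACGTG on either strand, against 21.8% of 27025 genes with a window and 29.3% of 9760 genes that were both tested and had one. GCGTG was found in 24 genes (72.7%), against 35.2% of all genes and 56.4% of tested genes. At least 1 of these cores was found in 30 genes (90.9%), against 46.7% of all genes and 67.8% of tested genes. The E-box CACGTG, which includes an ACGTG on each strand, was found in 6 genes (18.2%), against 8.09% and 11.8%. The AP-1 motif TGACTCA or TGAGTCA was found only in Aldoa, or 3.03% of genes, against 5.95% and 4.51%. The number of windows per gene was not equal, and a gene with more windows has more places for a match. The 33 genes had 50 windows, the tested genes 12514 and all genes 32851. Per window rather than per gene, ACGTG lay in 44% of the 50 windows of these genes and in 19.6% of 32851 windows in all. The share per window of tested genes was not computed. The median GC content was 60.7% in these windows, 61% in those of tested genes and 52.7% in all windows. A match describes letters and not a bound site.

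The heat map of all 34 genes shows the TGF-alpha libraries standing apart from the other groups in most rows.

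**Figure D1:**
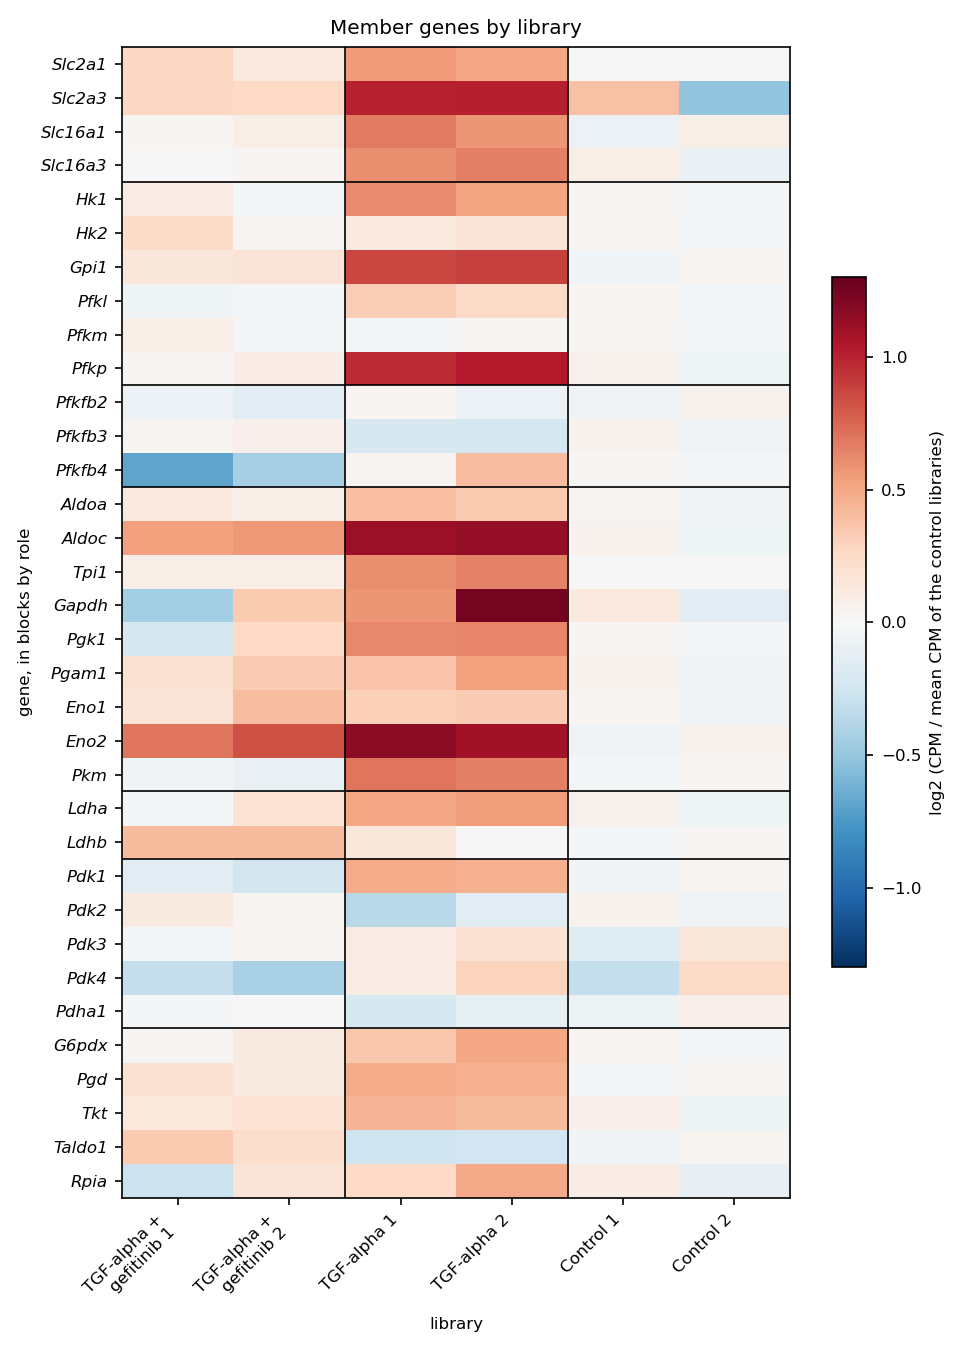
Each cell is a gene's CPM in one library, as log2 of its ratio to the mean CPM of the control libraries. Rows are the 34 genes in blocks by role and columns are the 6 libraries. The TGF-alpha libraries are red in most rows, while Taldo1, Pfkfb3, Pdk2 and Pdha1 are blue there.

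With TGF-alpha, 22 of the 34 genes were higher than in controls, 3 were lower and 9 were not called (edgeR quasi-likelihood test, Benjamini-Hochberg adjusted p under 0.05 over all tested genes). Over the whole table, 29.9% of genes passed in this comparison, 15.9% as higher and 14% as lower. The median log2 fold change was 0.44 over the 34 genes and 0.0039 over all tested genes. At a change of at least 1.5-fold, 11 of the 34 were higher and 0 lower, against 8.16% and 5.47% of tested genes. The libraries of the 2 groups did not overlap for 25 genes above and 4 below control, against 32.8% and 31.3% of tested genes, or 64.1% in both directions. DESeq2 did not call Slc2a3 or Pdha1 here (adjusted p = 0.0983 and 0.0895).

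With TGF-alpha plus gefitinib, 21 of the 34 genes were lower than with TGF-alpha, 5 were higher and 8 were not called, where the whole table had 34% of genes called, 16.9% as lower and 17% as higher. The median log2 fold change was -0.36 over the 34 genes and 0.013 over all tested genes. At a change of at least 1.5-fold, 8 were lower and 0 higher, against 8.49% and 6.54% of tested genes. Libraries did not overlap for 26 genes below and 5 above TGF-alpha, against 32.3% and 33.5% of tested genes, or 65.8% in both directions. DESeq2 did not call Pgam1, Eno2, Pdk2 or Pdha1 here, with adjusted p between 0.0557 and 0.150. This comparison shares the TGF-alpha libraries with the one against control, so the values of both are set side by side below and are not independent.

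Between TGF-alpha plus gefitinib and control, 25 of the 34 genes were not called, 8 were higher and 1 was lower, where the whole table had 9.52% of genes called, 5.27% as higher and 4.26% as lower. At a change of at least 1.5-fold, 1 was higher and 0 lower, against 1.41% and 0.651% of tested genes. Libraries did not overlap for 13 genes above and 4 below control, against 26.5% and 25.6% of tested genes, or 52.1% in both directions. DESeq2 did not call Slc2a1, Gpi1, Pfkfb4 or Pgam1 here, with adjusted p between 0.0542 and 0.147. The median log2 fold change was 0.061 over the 34 genes and 0.002 over all tested genes. Without TMM factors, the split of calls over all genes was 3034 higher and 1604 lower, in place of 2446 and 2154, for TGF-alpha against control, and 1333 and 388, in place of 809 and 654, for TGF-alpha plus gefitinib against control. The summed CPM of the 34 genes was 8904 ± 180.4 with TGF-alpha plus gefitinib, 11800.0 ± 4.67 with TGF-alpha and 8398 ± 146 in controls (SD, n = 2 each). The smallest p that an exact permutation test of 2 against 2 libraries allows is 0.33, so this sum is a description.

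**Figure D2:**
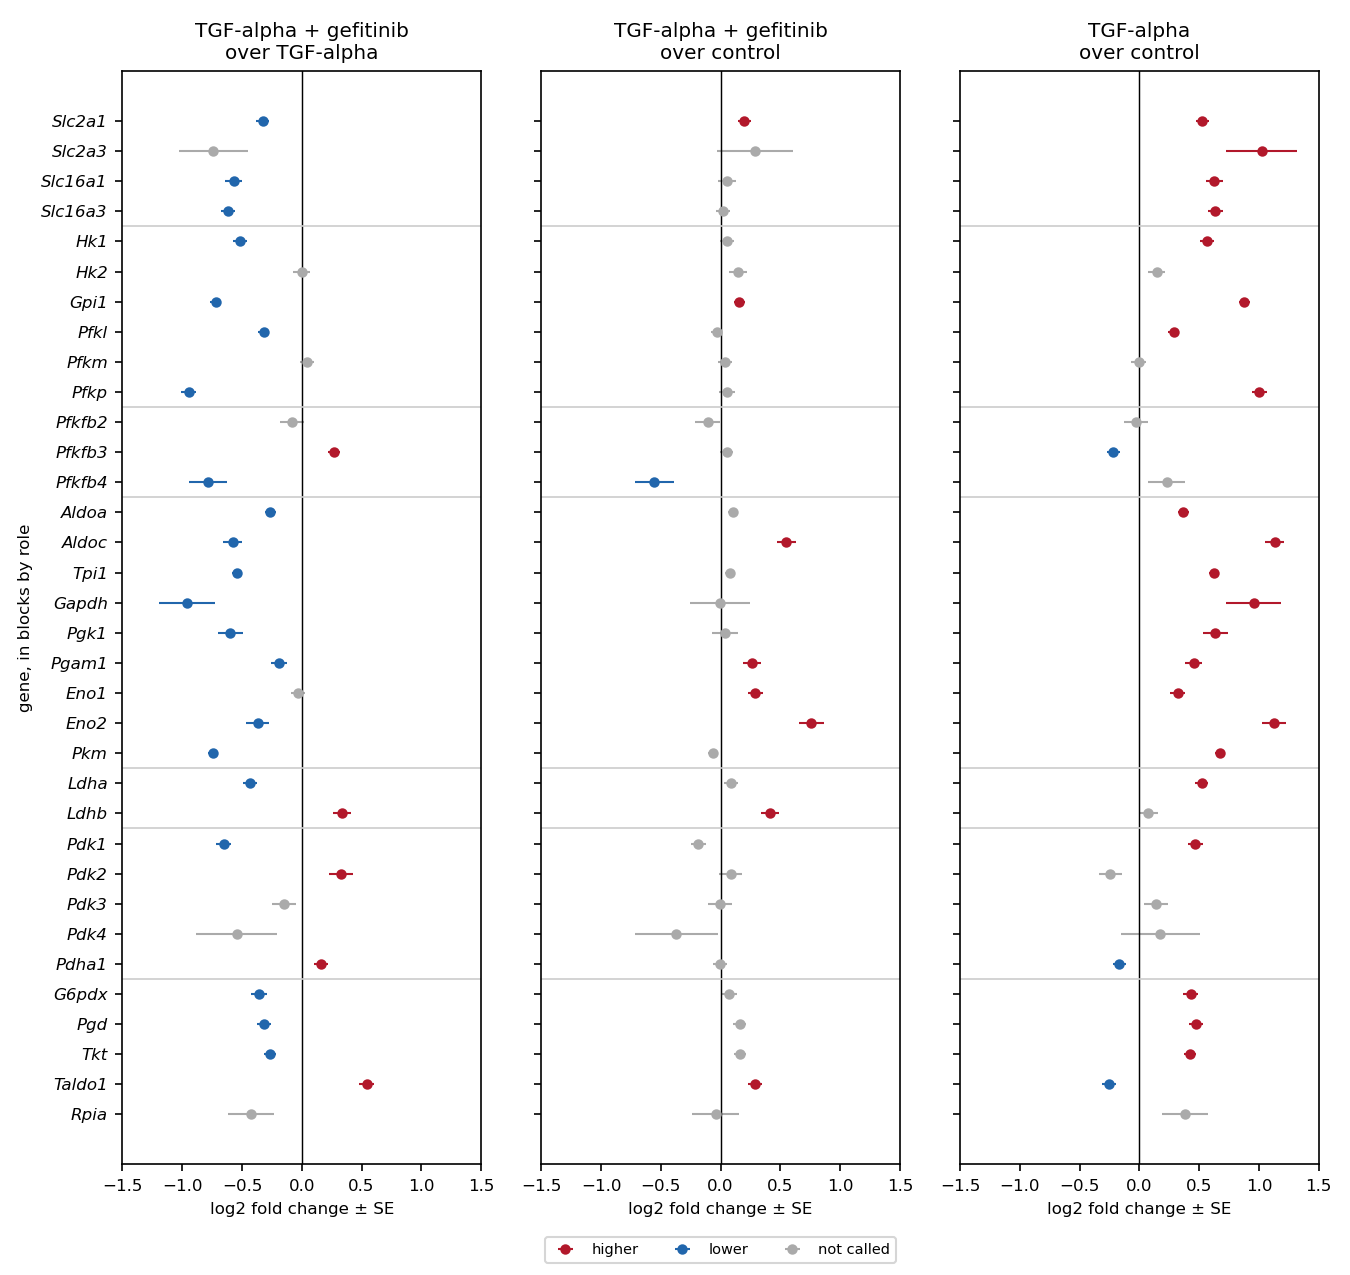
Points are log2 fold changes from the edgeR fit and bars are ± 1 SE, for the 34 genes in blocks by role, in 3 panels by comparison. Red marks higher, blue lower and grey not called. Most points lie left of 0 for TGF-alpha plus gefitinib over TGF-alpha and right of 0 for TGF-alpha over control, while 25 of 34 are grey for TGF-alpha plus gefitinib over control.

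All 4 transporter genes rose with TGF-alpha over control, where 15.9% of all tested genes did. Slc2a1 encodes GLUT1, a glucose importer, and stood at 178 and 162 CPM with TGF-alpha plus gefitinib, 218 and 209 CPM with TGF-alpha and 148 and 148 CPM in controls. The 3 groups did not overlap. Its log2 fold change was -0.33 ± 0.056 for TGF-alpha plus gefitinib over TGF-alpha (adjusted p = 0.000346) and 0.53 ± 0.056 for TGF-alpha over control (adjusted p = 4.23e-06). The smaller rise over control with both agents, 0.20 ± 0.057 (adjusted p = 0.0393), was not called in 5 of 6 fits that each left out 1 library (all but TGF-alpha plus gefitinib 2), with adjusted p between 0.0619 and 0.276.

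Slc16a3 encodes MCT4, which exports lactate, and had 138 and 139.8 CPM with TGF-alpha plus gefitinib, 209 and 216 CPM with TGF-alpha and 145 and 129 CPM in controls. Both libraries with gefitinib lay between the control libraries, and both TGF-alpha libraries lay above them. The log2 fold changes were -0.62 ± 0.06 (adjusted p = 1.59e-06) against TGF-alpha and, for TGF-alpha over control, 0.64 ± 0.06 (adjusted p = 1.21e-06). Slc16a1, which encodes the lactate and pyruvate carrier MCT1, moved alike: 59.1 and 61.6 CPM, 92.8 and 86.2 CPM and 54.8 and 61.1 CPM in the same order of groups, with 1.54-fold more with TGF-alpha than in controls.

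Slc2a3 (GLUT3) was near the lower end of detection, at 2.74 and 2.72 CPM with TGF-alpha plus gefitinib, 4.54 and 4.58 CPM with TGF-alpha and 2.97 and 1.59 CPM in controls, or 25 to 63 reads per library. Its rise with TGF-alpha over control, 1.02 ± 0.30 on the log2 scale (adjusted p = 0.0173), was not called without Control 2 (0.193), TGF-alpha 1 (0.0732) or TGF-alpha 2 (0.0784), or by DESeq2 (0.0983). Against TGF-alpha, its change with gefitinib added was -0.74 ± 0.29 and not called (adjusted p = 0.0648), but was called without Control 1 (0.0461) or Control 2 (0.0397), with the 4 compared libraries alone (0.0359) or with no filter on low counts (0.0294). The cause was not tested.

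Of the 6 genes from hexokinase to phosphofructokinase, 4 rose with TGF-alpha over control and the same number fell with gefitinib added. Over all tested genes, 15.9% rose and 16.9% fell in these comparisons. Pfkp, the platelet-type phosphofructokinase, had the largest change: 71.0 and 74.9 CPM with TGF-alpha plus gefitinib, 138 and 144 CPM with TGF-alpha and 72.9 and 67.6 CPM in controls. The TGF-alpha libraries were high and the libraries of the other groups overlapped. Its log2 fold change was -0.95 ± 0.062 for TGF-alpha plus gefitinib over TGF-alpha (adjusted p = 2.28e-08) and 1.00 ± 0.062 for TGF-alpha over control (adjusted p = 1.3e-08), a 2.003-fold rise. Against control, the value with both agents was 0.055 ± 0.065 (adjusted p = 0.677).

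Gpi1, the isomerase that makes fructose 6-phosphate, stood at 355 and 359 CPM with TGF-alpha plus gefitinib, 585 and 593 CPM with TGF-alpha and 312 and 329 CPM in controls. It was 1.84-fold higher with TGF-alpha than in controls (log2 0.88 ± 0.046, adjusted p = 1.76e-09), and it was 1.65-fold lower with gefitinib added than with TGF-alpha alone (log2 -0.72 ± 0.045, adjusted p = 1.39e-08). No groups overlapped. Its rise over control with both agents (0.16 ± 0.046, adjusted p = 0.0444) was not called in any of the 6 fits without 1 library, with adjusted p between 0.0681 and 0.289.

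Hk1, the hexokinase that starts glycolysis in most tissues, had 150.3 and 138 CPM with TGF-alpha plus gefitinib, 214 and 199 CPM with TGF-alpha and 140.5 and 138 CPM in controls, and both its rise with TGF-alpha over control (1.48-fold) and its fall with gefitinib added (1.43-fold) were called. Pfkl, the liver-type phosphofructokinase, rose 1.22-fold with TGF-alpha over control and was 1.248-fold lower with gefitinib added. Hk2 and Pfkm were not called in any comparison. Pfkm, the muscle-type enzyme, reached at most 97.1 CPM in any library, with a log2 fold change of 0.044 ± 0.06 with gefitinib added and -0.0066 ± 0.06 for TGF-alpha over control. Hk2, a hexokinase known as inducible in other tissues, had 87.5 and 75.5 CPM with TGF-alpha plus gefitinib, 80.5 and 82.7 CPM with TGF-alpha and 75.2 and 72.5 CPM in controls. Without TMM factors Hk2 was called higher with TGF-alpha than in controls (adjusted p = 0.0381).

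The bifunctional enzymes that make and break down fructose 2,6-bisphosphate, an activator of phosphofructokinase, did not move as a block. Pfkfb3, whose enzyme mainly makes that activator, had 178 and 183 CPM with TGF-alpha plus gefitinib, 151 and 148 CPM with TGF-alpha and 179.6 and 169 CPM in controls. It was lower with TGF-alpha than in controls (log2 -0.22 ± 0.053, adjusted p = 0.00589) and higher with gefitinib added (log2 0.27 ± 0.053, adjusted p = 0.00116). The fall was not called without Control 1 (adjusted p = 0.0776) or TGF-alpha 2 (0.0537).

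Pfkfb4 had 7.40 and 8.80 CPM with TGF-alpha plus gefitinib, 12.2 and 15.6 CPM with TGF-alpha and 12.02 and 11.7 CPM in controls, so both libraries with gefitinib were the lowest. It was not called between TGF-alpha and control (0.23 ± 0.15, adjusted p = 0.3). Its log2 fold change against TGF-alpha was -0.78 ± 0.16 (adjusted p = 0.00159). It was also the only one of the 34 genes called lower with both agents than in controls (-0.56 ± 0.16, adjusted p = 0.0465), a call lost without either control library (0.185 and 0.164) or either library with gefitinib (0.214 and 0.0609). Pfkfb2 lay between 20.9 and 23.7 CPM in every library and was not called.

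All 9 genes from aldolase to pyruvate kinase rose with TGF-alpha over control, between 1.249-fold (Eno1) and 2.19-fold (Aldoc), against 15.9% of all tested genes. With gefitinib added 8 of 9 fell, Pgam1 only at the threshold, against 16.9%. Pkm, pyruvate kinase of the last step, had 1374 and 1321 CPM with TGF-alpha plus gefitinib, 2285 and 2223 CPM with TGF-alpha and 1383 and 1436 CPM in controls. The libraries with gefitinib were just under the control libraries and all 4 were under those with TGF-alpha. The log2 fold changes were -0.74 ± 0.042 with gefitinib added (adjusted p = 4.78e-09) and 0.68 ± 0.042 for TGF-alpha over control (adjusted p = 1.38e-08).

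Tpi1, triose phosphate isomerase, had 775 and 779 CPM with TGF-alpha plus gefitinib, 1116 and 1152 CPM with TGF-alpha and 736 and 734 CPM in controls, and was 1.54-fold higher with TGF-alpha than in controls. Aldoa, the main aldolase here, had 1522 and 1474 CPM, 1832 and 1763 CPM and 1431 and 1353 CPM in the same order, and rose 1.29-fold. In neither gene did any groups overlap, and gefitinib added to TGF-alpha gave log2 fold changes of -0.54 ± 0.041 for Tpi1 (adjusted p = 9.96e-08) and -0.26 ± 0.044 for Aldoa (adjusted p = 0.000288).

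The minor isozymes of aldolase and enolase had the largest rises with TGF-alpha among these 9 genes. Aldoc, known as the brain form of aldolase, had 39.4 and 40.5 CPM with TGF-alpha plus gefitinib, 58.8 and 60.4 CPM with TGF-alpha and 28.3 and 26.3 CPM in controls. Eno2, known as neuron-specific enolase, had 26.0 and 28.5 CPM with TGF-alpha plus gefitinib, 36.0 and 34.4 CPM with TGF-alpha and 15.6 and 16.6 CPM in controls. For both genes, the libraries with gefitinib lay between those with TGF-alpha and the controls, with no overlap.

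With TGF-alpha, Aldoc rose over control by 1.13 ± 0.079 (adjusted p = 4.63e-08) and Eno2 by 1.13 ± 0.10 on the log2 scale (adjusted p = 6.37e-07). With both agents they were still higher than in controls, Aldoc by 0.55 ± 0.081 (adjusted p = 0.000522) and Eno2 by 0.76 ± 0.10 (adjusted p = 0.00026). Among the 9 genes called between those groups, these were the 2 whose calls held in all 16 alternative settings tried. The fall of Eno2 with gefitinib added to TGF-alpha, -0.37 ± 0.10 (adjusted p = 0.00781), was not called without TGF-alpha 1 (0.0619) or TGF-alpha plus gefitinib 1 (0.058).

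Eno1, the main enolase, was not called with gefitinib added. It had 667 and 782 CPM with TGF-alpha plus gefitinib, 734 and 745 CPM with TGF-alpha and 604 and 579.6 CPM in controls. The libraries with gefitinib lay on either side of those with TGF-alpha, with a log2 fold change of -0.03 ± 0.06 (adjusted p = 0.749), and the change was called lower without TGF-alpha plus gefitinib 2 (-0.15, adjusted p = 0.0466). With both agents Eno1 was higher than in controls by 0.29 ± 0.061 (adjusted p = 0.00705), a call lost without Control 2 (0.101) or TGF-alpha plus gefitinib 2 (0.0614).

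Pgam1, phosphoglycerate mutase, had 79.0 and 86.4 CPM with TGF-alpha plus gefitinib, 89.4 and 99.2 CPM with TGF-alpha and 70.9 and 66.9 CPM in controls, with no overlap. Its fall with gefitinib added was at the threshold (log2 -0.19 ± 0.07, adjusted p = 0.0499) and was lost in 4 of 6 fits without 1 library: Control 1 (0.072), Control 2 (0.0687), TGF-alpha 2 (0.378) and TGF-alpha plus gefitinib 1 (0.235). Its rise over control with both agents (0.26 ± 0.072, adjusted p = 0.0327) was lost without Control 1 (0.09), Control 2 (0.239) or TGF-alpha plus gefitinib 2 (0.202).

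Pgk1, phosphoglycerate kinase, had 59.6 and 83.1 CPM with TGF-alpha plus gefitinib, 107 and 108 CPM with TGF-alpha and 69.9 and 68.6 CPM in controls, so the libraries with gefitinib lay on either side of the controls. It rose 1.55-fold with TGF-alpha over control and fell 1.51-fold with gefitinib added. Against control, the value with both agents was 0.038 ± 0.11 (adjusted p = 0.883), but without TGF-alpha plus gefitinib 1 it was called higher (0.26, adjusted p = 0.0429).

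Gapdh, often used as a constant standard in expression assays, had very few counts, 101 to 306 per library. It had 6.92 and 11.9 CPM with TGF-alpha plus gefitinib, 14.0 and 22.2 CPM with TGF-alpha and 10.2 and 8.53 CPM in controls, and its fold changes had the largest SE of the 9 genes. Its rise with TGF-alpha, 0.96 ± 0.23 (adjusted p = 0.00587), was lost without Control 2 (0.083) or TGF-alpha 2 (0.143). Its fall with gefitinib added, -0.96 ± 0.24 (adjusted p = 0.00558), was lost without TGF-alpha 2 (0.128) or TGF-alpha plus gefitinib 1 (0.0593).

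Near-identical copies bear on Gapdh and its neighbours, since nothing says how reads that match several genes were counted. Of the longest Gapdh transcript, 88.0% matched transcripts of 81 other genes at 95% identity or more over at least 100 bases, and 77 of these were pseudogenes. The 72 of these pseudogenes in the count table held 6384 reads over the 6 libraries, against 1015 for Gapdh. Likewise 85.6% of Eno1, 76.8% of Ldhb, 68.8% of Pgk1, 65.5% of Pkm, 55.3% of Gpi1 and 55.0% of Ldha matched other genes. The pseudogenes matching Eno1 held 87757 reads against 56784 for Eno1, and those matching Pgk1 held 21019 against 6851. The pseudogene matching Pgam1, over 43.1% of its length, held 14228 against 6795, and the one matching Gpi1 held 16990 against 35096.

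With the counts of these pseudogenes added to each gene, 22 genes were lower and 5 higher with gefitinib added, and 22 rose and 3 fell with TGF-alpha over control. Gapdh then rose by 0.68 ± 0.081 with TGF-alpha over control (adjusted p = 1.21e-05) and changed by -0.38 ± 0.080 with gefitinib added (adjusted p = 0.00192). Against control, its value with both agents was 0.30 ± 0.082 (adjusted p = 0.0333), where the gene alone had -0.0027 ± 0.25 (adjusted p = 0.996). Pgk1 rose by 0.88 ± 0.070 with TGF-alpha, against 0.63 ± 0.10 for the gene alone. Eno1 was then called lower with gefitinib added, by a small margin (-0.13 ± 0.042, adjusted p = 0.0323). Even with its copies, Gapdh had only 68.2 to 122 CPM per library, against 772 to 1205 CPM for Tpi1 with its copy. The sum may therefore not hold all Gapdh reads, which was not tested. The matching and the sum were added after the low Gapdh counts were seen.

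**Figure D3:**
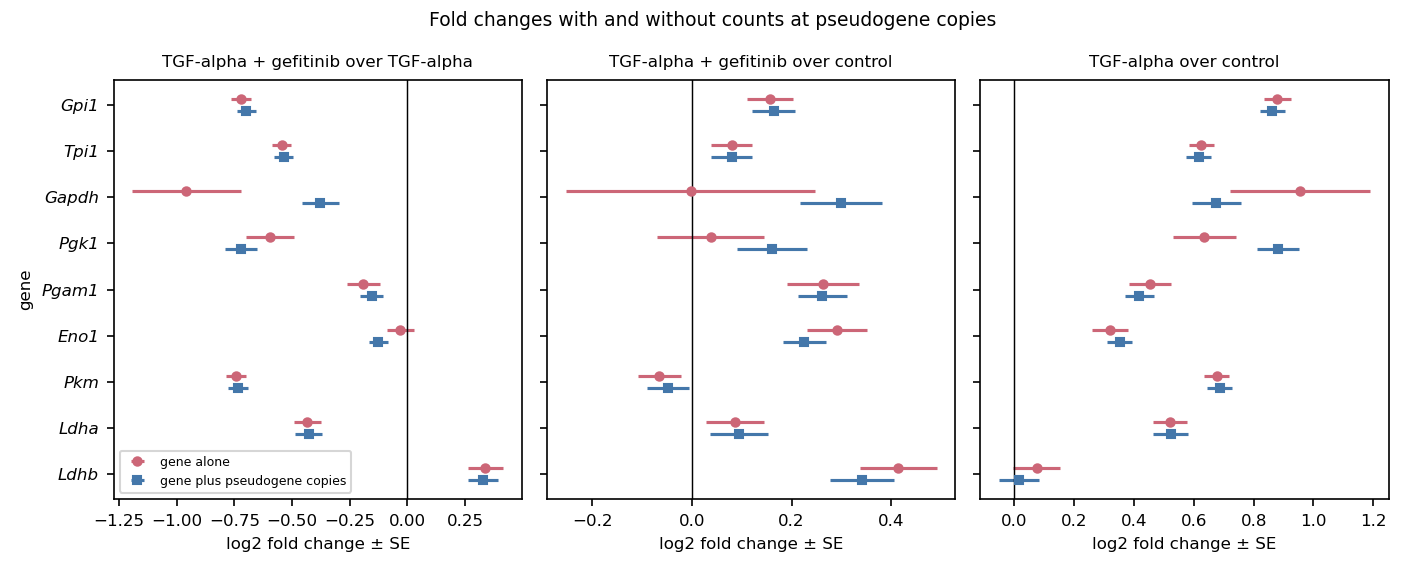
Points are log2 fold changes ± 1 SE of 9 genes with pseudogene copies, in 3 panels by comparison: circles for the gene alone and squares with the counts of its pseudogenes added. The horizontal scale differs between panels. Gapdh and Pgk1 move most between circle and square, while Gpi1, Tpi1, Pkm and Ldha barely move.

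Ldha, whose subunit favours making lactate, rose with TGF-alpha while Ldhb, whose subunit favours pyruvate, was highest with both agents. Ldha had 1536 and 1758 CPM with TGF-alpha plus gefitinib, 2191 and 2257 CPM with TGF-alpha and 1612 and 1490.1 CPM in controls. Its log2 fold change was -0.43 ± 0.058 with gefitinib added (adjusted p = 3.61e-05) and 0.52 ± 0.058 for TGF-alpha over control (adjusted p = 6.62e-06), and the libraries with gefitinib overlapped the controls.

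Ldhb had 54.2 and 54.3 CPM with TGF-alpha plus gefitinib, 45.1 and 40.6 CPM with TGF-alpha and 40.1 and 41.3 CPM in controls. The libraries with gefitinib were above all 4 others. It was not called between TGF-alpha and control (0.075 ± 0.079, adjusted p = 0.527), and was higher with both agents than with TGF-alpha (0.34 ± 0.077, adjusted p = 0.00338) and than in controls (0.41 ± 0.077, adjusted p = 0.00336). Per kilobase of exon, Ldhb made up 4.59% of the lactate dehydrogenase transcript level with TGF-alpha plus gefitinib, 2.73% with TGF-alpha and 3.68% in controls. These shares leave out counts at pseudogene copies.

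Pyruvate dehydrogenase kinases switch off pyruvate dehydrogenase, and only Pdk1 among the 4 was called between TGF-alpha and control. Pdk1 had 87.6 and 82.0 CPM with TGF-alpha plus gefitinib, 135 and 132 CPM with TGF-alpha and 93.7 and 99.1 CPM in controls, with no overlap between groups. Its log2 fold change was -0.65 ± 0.06 with gefitinib added (adjusted p = 7.89e-07) and 0.47 ± 0.059 for TGF-alpha over control (adjusted p = 2.19e-05). The value with both agents over control, -0.19 ± 0.061, was not called (adjusted p = 0.072), but was with upper quartile factors (-0.20, adjusted p = 0.0493).

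Pdk2 had 35.4 and 33.5 CPM with TGF-alpha plus gefitinib, 25.4 and 29.6 CPM with TGF-alpha and 33.6 and 31.6 CPM in controls, so the TGF-alpha libraries were the lowest. It rose with gefitinib added (0.33 ± 0.10, adjusted p = 0.0183), a call lost without TGF-alpha 1 (0.183) or TGF-alpha plus gefitinib 1 (0.124). Its value for TGF-alpha over control was -0.24 ± 0.10 (adjusted p = 0.0783), and was called without TGF-alpha 2 (-0.36, adjusted p = 0.0435).

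Pdha1, the catalytic alpha subunit of pyruvate dehydrogenase, had 163 and 166 CPM with TGF-alpha plus gefitinib, 143 and 151 CPM with TGF-alpha and 158 and 173 CPM in controls. It was lower with TGF-alpha than in controls (-0.17 ± 0.058, adjusted p = 0.0418) and higher with gefitinib added (0.16 ± 0.058, adjusted p = 0.0455). The fall was lost without Control 2 (0.359), TGF-alpha 1 (0.26) or TGF-alpha 2 (0.0638), and the rise without any of the 4 libraries compared (0.064 to 0.271). Pdk3, between 31.5 and 40.3 CPM, and Pdk4, at 19 to 38 reads per library, were not called in any comparison.

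In the pentose phosphate pathway, the 2 dehydrogenases that make NADPH and transketolase rose with TGF-alpha, while transaldolase fell. G6pdx, the entry enzyme glucose 6-phosphate dehydrogenase, had 92.4 and 99.5 CPM with TGF-alpha plus gefitinib, 117 and 129.6 CPM with TGF-alpha and 93.4 and 89.7 CPM in controls. Pgd, 6-phosphogluconate dehydrogenase, had 118 and 111 CPM, 144 and 142 CPM and 102 and 104 CPM in the same order of groups. Tkt, transketolase of the non-oxidative branch, had 335 and 343 CPM, 411 and 403 CPM and 317 and 291 CPM. The TGF-alpha libraries were the highest for each of the 3 genes.

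Their rises with TGF-alpha over control were 1.35-fold for G6pdx, 1.39-fold for Pgd and 1.34-fold for Tkt, with adjusted p of 0.000153, 1.1e-05 and 1.32e-05 in that order. With gefitinib added, their log2 fold changes were -0.36 ± 0.066, -0.32 ± 0.055 and -0.26 ± 0.05, each called lower (adjusted p = 0.000618, 0.000437 and 0.000898). None of the 3 was called between both agents and control, but without TMM factors Pgd (0.22) and Tkt (0.23) were called higher there.

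Taldo1, transaldolase of the same non-oxidative branch, had 137 and 126 CPM with TGF-alpha plus gefitinib, 89.7 and 90.7 CPM with TGF-alpha and 105 and 110.2 CPM in controls. The groups did not overlap, with gefitinib highest and TGF-alpha lowest. Its log2 fold change was 0.54 ± 0.06 with gefitinib added (adjusted p = 5.82e-06), 0.29 ± 0.059 for both agents over control (adjusted p = 0.00664) and -0.25 ± 0.061 for TGF-alpha over control (adjusted p = 0.00503). The last was not called without Control 2 (0.0654), and the second not without Control 1 (0.0875) or TGF-alpha plus gefitinib 1 (0.0615). Rpia, ribose 5-phosphate isomerase, had 86 to 138 reads per library and was not called, but was called lower with gefitinib added without TGF-alpha plus gefitinib 2 (-0.65, adjusted p = 0.0447).

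Levels of different genes were compared as CPM per kilobase of the gene's joined exons. They leave out counts at pseudogene copies, so the ranks of genes with such copies depend on how shared reads were counted. Of the counts with copies added, the gene itself held 40.2% and 37.9% for Eno1 in controls. It held 30.3% and 24.8% for Pgk1, 15.0% and 11.9% for Gapdh and 85.4% and 86.2% for Pkm, while Aldoa had no such copies. Ranks with copies added were not computed. In controls, Ldha (819 ± 45.5), Aldoa (543 ± 21.5), Pkm (542 ± 14.5), Tpi1 (417 ± 0.803) and Eno1 (233 ± 6.93) were the 5 highest, each in CPM per kilobase (SD, n = 2), and Aldoa and Pkm did not differ beyond their spread. The same 5 genes led with TGF-alpha plus gefitinib and with TGF-alpha. With TGF-alpha, Pkm (867 ± 16.7) stood above Aldoa (701 ± 18.9), whereas with TGF-alpha plus gefitinib Pkm (518 ± 14.4) stood below Aldoa (584 ± 13.3). Slc2a3 (0.576 ± 0.245) and Pdk4 (0.583 ± 0.158) were the lowest in controls and did not differ beyond their spread. The order of Aldoa and Pkm depended on the length used. Per kilobase of the longest transcript, Aldoa stood above Pkm in every group, at 967 ± 22.1 against 554 ± 15.4 with TGF-alpha plus gefitinib, 1161 ± 31.4 against 927 ± 17.8 with TGF-alpha and 899 ± 35.7 against 579.7 ± 15.5 in controls, and Aldoa ranked first in controls.

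Shares within families followed the unequal changes of the isozymes. Pfkp made up 13.6% ± 0.434 of phosphofructokinase transcripts per kilobase with TGF-alpha plus gefitinib, 20.6% ± 0.815 with TGF-alpha and 13.05% ± 0.3299 in controls (SD, n = 2 each). Pfkm made up 25.1%, 19.2% and 24.4% in the same order, while Pfkl stayed between 59.3% and 62.6% in every library. The TGF-alpha libraries stood apart for Pfkp and Pfkm, and the other groups differed by little.

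Pdk1 made up 33.5% ± 0.871 of the pyruvate dehydrogenase kinase transcripts per kilobase with TGF-alpha plus gefitinib, 45.1% ± 2.02 with TGF-alpha and 36.9% ± 0.587 in controls. Pdk2 made up 31.4%, 21.4% and 28.9%. Hk1 made up 67.2% of the hexokinase pair with TGF-alpha plus gefitinib, 74.5% with TGF-alpha and 68.6% in controls. Among the lactate carriers Slc16a3 held 67.7% to 72.5% in every library, with no group standing apart. Such shares are descriptions over 2 libraries a group, and have no test.

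**Figure D4:**
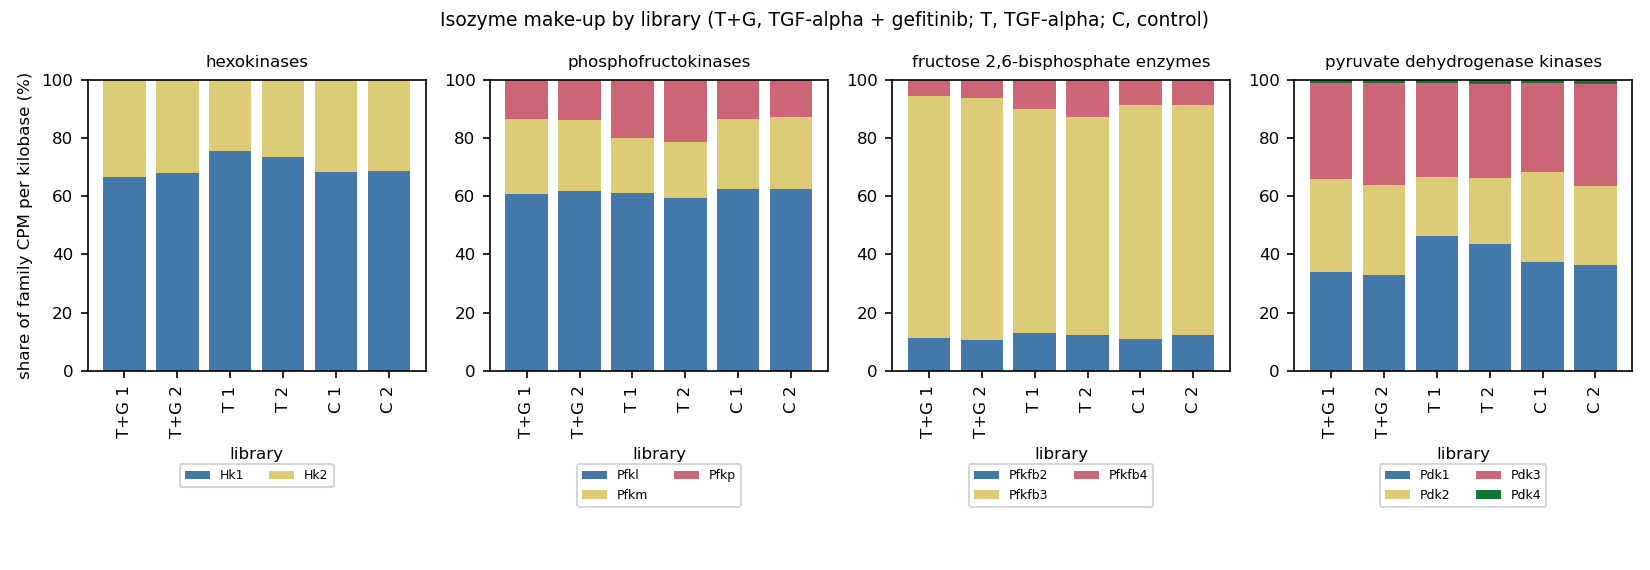
Stacked bars give each isozyme's share (%) of its family's CPM per kilobase of exon in each of the 6 libraries, for 4 families. T+G is TGF-alpha plus gefitinib, T is TGF-alpha and C is control. The 2 TGF-alpha bars show more Pfkp, Hk1 and Pdk1 than the bars of the other groups.

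Genes next to these in metabolism were taken from 11 further lists with 145 genes, of which 127 were tested. In them 38 rose (29.9%) and 20 fell (15.75%) with TGF-alpha over control, against 15.9% and 14% of all tested genes. With gefitinib added, 25 were higher (19.7%) and 35 lower (27.6%), against 17% and 16.9%, and with both agents 12 were higher (9.45%) and 7 lower (5.51%) than in controls, against 5.27% and 4.26%. The shares that fell with TGF-alpha and rose with gefitinib added were thus near those of the whole table. Of 17 hypoxia-responsive genes outside glycolysis, 12 rose and 0 fell with TGF-alpha, and 12 fell and 2 rose with gefitinib added. Their median log2 fold changes were 0.51 and -0.42, against 0.0039 and 0.013 over all tested genes.

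Car9, a membrane carbonic anhydrase, had 168 and 160.0 CPM with TGF-alpha plus gefitinib, 385 and 399 CPM with TGF-alpha and 175 and 180.5 CPM in controls. It was 2.20-fold higher with TGF-alpha than in controls (adjusted p = 2.95e-10) and 2.39-fold lower with gefitinib added (adjusted p = 9.67e-11). Egln3, a prolyl hydroxylase that marks hypoxia-inducible factors for breakdown, had 7.40 and 7.76 CPM, 19.4 and 18.0 CPM and 5.70 and 5.86 CPM in the same order of groups, a 3.23-fold rise with TGF-alpha. Ero1l, an oxidase of protein folding, rose 1.59-fold. Ndrg1 and Higd1a were the 2 called higher with gefitinib added, at log2 fold changes of 0.19 ± 0.051 and 0.47 ± 0.083.

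Of 17 regulators of glycolytic genes, 4 rose and 2 fell with TGF-alpha, shares near the 15.9% and 14% of all tested genes, and their median log2 fold change was -0.025. Epas1, which encodes HIF-2 alpha, had 17.5 and 18.7 CPM with TGF-alpha plus gefitinib, 50.7 and 46.4 CPM with TGF-alpha and 18.7 and 18.4 CPM in controls, and rose 2.62-fold (adjusted p = 3.69e-08). Hif1a, which encodes HIF-1 alpha, was not called, with a log2 fold change of -0.055 ± 0.048 with TGF-alpha (adjusted p = 0.435). Egln1, the main prolyl hydroxylase of these factors, had 102 and 101 CPM, 196 and 173 CPM and 104 and 97.3 CPM in the same order. Txnip, which restrains glucose uptake, rose 1.27-fold with TGF-alpha and was 1.62-fold lower with gefitinib added, below control (-0.35 ± 0.044, adjusted p = 0.000145).

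Of 10 further carriers and their partners, 2 rose and 3 fell with TGF-alpha, where 15.9% and 14% of all tested genes did, and their median log2 fold change was 0.0035. Emb and Bsg encode embigin and basigin, membrane partners of the lactate carriers. Emb had 113 and 114 CPM with TGF-alpha plus gefitinib, 213 and 222 CPM with TGF-alpha and 87.7 and 88.2 CPM in controls, with no overlap, and rose 2.47-fold with TGF-alpha (adjusted p = 1.35e-10). It was also higher with both agents than in controls (0.36 ± 0.055, adjusted p = 0.000584). Bsg rose 1.15-fold with TGF-alpha (adjusted p = 0.00171). Of the other pentose phosphate and nucleotide sugar genes, Prps2, Pgls and H6pd rose (3 of 6), by 1.499-fold, 1.246-fold and 1.11-fold.

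**Figure D5:**
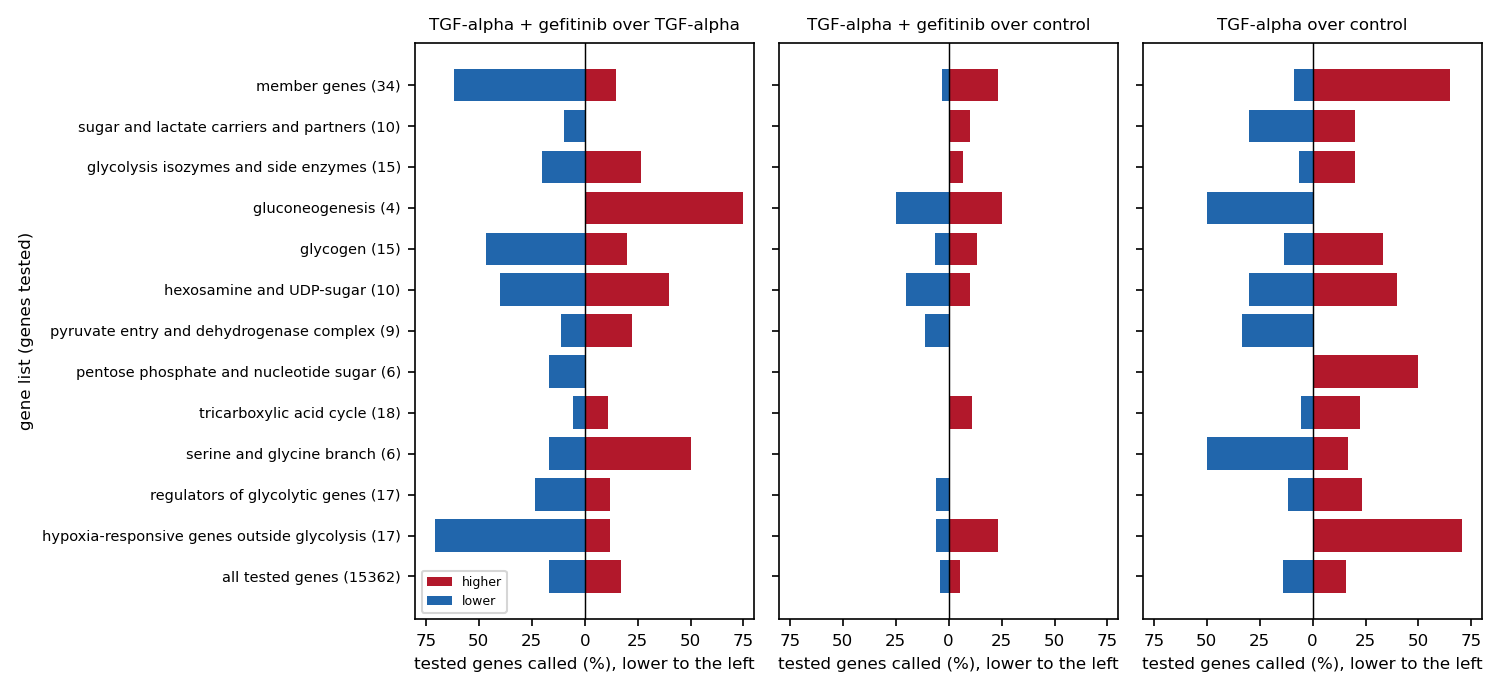
Bars give the percentage of tested genes of each list called higher (red, to the right) or lower (blue, to the left), in 3 panels by comparison, with the number of tested genes in brackets. The bottom row gives all 15362 tested genes. The 34 genes and the hypoxia-responsive list have long red bars for TGF-alpha over control and long blue bars for TGF-alpha plus gefitinib over TGF-alpha.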

How the data were processed

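What the authors deposited is a single matrix of unnormalized, whole-number counts, with a column for each of the 6 libraries and nothing pooled. Sequencing ran on the Ion Proton platform, per the labels' protocols. Reads were placed on GRCm38, per the submitters' processing notes. Which aligner, counter and annotation were used, and whether strand was, is not given in the sources used here. Reads shared by overlapping genes or near-identical copies may therefore be split or left out in an unknown way. Libraries held 12317407 to 16096263 counts.

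The test was edgeR 4.0.16's quasi-likelihood test in R 4.3.3, after filterByExpr (minimum count 10) and TMM scaling. The model held all 6 libraries and no covariate beside group (3 residual and 11.2 prior degrees of freedom, common coefficient of variation 6.08%). Each pair of groups was tested two-sided with Benjamini-Hochberg adjustment over 15362 transcripts with calls at an adjusted p under 0.05. Levels in CPM were computed from the deposited counts with TMM-scaled library sizes. The SE of a log2 fold change is its size divided by the square root of F. The fit was also run on counts simulated with the same spread for every gene and with independent libraries. That run cannot show how the test behaves if the libraries of a group are technical replicates. Alternatives were RLE, upper quartile or no scaling factors, no filter, DESeq2 1.42.0, a replicate block, a test against a 1.2-fold change, a threshold of 0.01, the 4 compared libraries alone, each library left out in turn, 3 abundant genes left out and pseudogene copies added. The last 2 were chosen after seeing the data. Calls of single genes were compared over 16 of these alternatives, all but the threshold of 0.01. Without 1 library of a group, the lone library left is assumed to vary like the others.

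Gene positions, exon lengths and transcripts came from GENCODE M21 (GRCm38) and promoter windows from RefSeq (GRCm38.p6). Copies were found with BLAST 2.17.0. Members and lists were chosen with earlier results of these data known. Named were all 34 genes and, of each further list, up to 3 called genes per direction and comparison with the smallest p. Hif1a and Col2a1 were added after their values were seen.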

Additional observations from a re-analysis of the deposited data

How the results depend on the processing

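Calls among the 34 genes that held in all 16 alternatives numbered 18 of 25 for TGF-alpha over control, 13 of 26 for TGF-alpha plus gefitinib over TGF-alpha and 2 of 9 for TGF-alpha plus gefitinib over control. Leaving out each library in turn gave 18 to 23 genes lower, 3 to 5 higher and 3703 to 4950 called over all genes for gefitinib added, 0 to 1 lower, 4 to 6 higher and 649 to 1291 in all for both agents over control, and 20 to 22 higher, 1 to 3 lower and 3297 to 4767 in all for TGF-alpha over control. Tested against a 1.2-fold change, these counts were 13 lower, 1 higher and 2669 in all, then 0 lower, 2 higher and 277 in all. For TGF-alpha over control that test gave 20 higher, 0 lower and 2319 in all, and DESeq2 gave 21 higher, 2 lower and 3114 in all. DESeq2 gave 3 higher and 3474 in all with gefitinib added, and 5 higher, 0 lower and 905 in all for both agents over control. At an adjusted p under 0.01, 3 were higher with gefitinib added, and 5 higher, 0 lower and 709 in all for both agents over control. In the last comparison 0 were lower without TMM factors or with the 4 libraries alone, and 2 with upper quartile factors. The 1 value that changed sign with a call was Gapdh for both agents over control, at 0.30 with pseudogene copies added. The cause of the other shifts was not tested.

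Deviations of same-numbered libraries from their group means were hardly correlated across genes. The values were -0.023 between TGF-alpha plus gefitinib and TGF-alpha, 0.011 between TGF-alpha plus gefitinib and control and 0.0034 between TGF-alpha and control. With 2 libraries a group, these values cannot show whether same-numbered libraries shared a culture, animal or day. With the replicate number as a block, 20 were lower and 5 higher of 5042 in all with gefitinib added, 8 higher and 1 lower of 1335 for both agents over control, and 22 higher and 3 lower of 4450 for TGF-alpha over control. Slc2a3 and Pdk4 had at most 63 and 38 reads per library. Pdk4 was not called in any comparison, and the part of depth in the results of both genes was not tested.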

Other observations

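The counts for the remaining lists, which are small, are to be read against the whole table, where 17% of genes rose and 16.9% fell with gefitinib added, and 15.9% rose and 14% fell with TGF-alpha over control. Of 6 genes of the serine and glycine branch, 3 were higher and 1 lower with gefitinib added to TGF-alpha, and 1 was higher and 3 lower with TGF-alpha than in controls. Psph, the phosphatase that releases serine, had 70.8 and 69.6 CPM with TGF-alpha plus gefitinib, 39.0 and 39.0 CPM with TGF-alpha and 65.6 and 65.3 CPM in controls, so the TGF-alpha libraries were the lowest. It fell 1.68-fold with TGF-alpha over control (edgeR, adjusted p = 6.65e-07), and Phgdh and Mthfd2, of serine synthesis and folate metabolism, fell 1.51-fold and 1.77-fold. Of 10 hexosamine and UDP-sugar genes, 4 rose and 3 fell with TGF-alpha, with a median log2 fold change of 0.0038. Ugdh, which makes the UDP-glucuronate used for glycosaminoglycans, had 165 and 159.6 CPM with TGF-alpha plus gefitinib, 292 and 292 CPM with TGF-alpha and 179 and 175 CPM in controls, and rose 1.65-fold (adjusted p = 3.09e-08). Gfpt2 and Gfpt1, which commit fructose 6-phosphate to hexosamines, fell 1.80-fold and 1.34-fold. Uap1l1 was 3.02-fold higher with both agents than in controls (adjusted p = 3.72e-08).

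Of 15 glycogen genes, 5 rose and 2 fell with TGF-alpha over control, and 7 were lower and 3 higher with gefitinib added. Pgm2 (a phosphoglucomutase) and Pygl (a glycogen phosphorylase) rose 1.57-fold and 1.56-fold with TGF-alpha. Gyg, the glycogenin that primes glycogen, was 1.67-fold higher with both agents than in controls (adjusted p = 0.000338). Of 4 gluconeogenesis genes, Pck2 and Pcx fell 1.52-fold and 1.24-fold with TGF-alpha. Of 18 citric acid cycle genes, 4 rose and 1 fell with TGF-alpha, with a median log2 fold change of 0.069. Of 9 genes of pyruvate entry, Pdhx, Pdpr and Pdp1 fell and 0 rose. Of 15 further glycolytic isozymes and side enzymes 3 rose and 1 fell. The 3 include Gm5506, also named Eno1b, which rose 1.28-fold and was not among the pseudogenes added to Eno1. Whether it shares reads with Eno1 was not tested.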
